A study of Caenorhabditis elegans with 6 samples.

Results

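The genes described are 10 genes of the methionine cycle and of transsulfuration in *C. elegans*: *cth-1*, *cth-2*, *cbs-1*, *cbs-2*, *sams-1*, *sams-3*, *sams-4*, *ahcy-1*, *metr-1* and *mel-32*. They were chosen by gene name, with the lower level of *cth-1* in the mutant libraries described here already known, so the genotype differences of the 10 genes are given as a description, with no p-value. All 10 were found among the 28641 genes of the table, and all 10 passed the filter on low values (a mean of at least 1 FPKM over the 6 libraries), which 16225 genes passed. FPKM counts the sequenced fragments of a gene per length of exon and per mapped fragment of the library. The libraries came from whole, untreated worms of the last larval stage (L4), synchronized and grown at 20 °C on *E. coli* OP50. There were 3 libraries of wild type (WT, strain Bristol N2) and 3 of *alh-4(-)*, which carries the deletion allele *hj221* of *alh-4*, a gene for a membrane-anchored fatty aldehyde dehydrogenase. The mutant was represented by 1 allele, in all cells of the animal. The genotypes shared food, temperature and the stage named, L4, and timing within L4 is not given by library.

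In the methionine cycle, SAM synthetases (*sams* genes) join methionine and ATP into S-adenosylmethionine (SAM), the methyl donor for phosphatidylcholine, histones and many other products. The by-product S-adenosylhomocysteine is split by AHCY-1 into adenosine and homocysteine, and the vitamin B12-dependent methionine synthase METR-1 returns homocysteine to methionine with a methyl group from the folate cycle, which the serine hydroxymethyltransferase MEL-32 feeds. Homocysteine can instead enter transsulfuration, in which cystathionine beta-synthase (*cbs* genes) joins it to serine and cystathionine gamma-lyase (*cth* genes) cleaves the cystathionine to release cysteine, the precursor of glutathione. In worms, loss of *sams-1* lowers phosphatidylcholine and increases fat storage.

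The deleted gene checked the labels. The *alh-4* level was 352, 291 and 336 FPKM in WT, against 33.7, 24.6 and 35.2 FPKM in *alh-4(-)*, or 9.55% of the WT mean. The depth of the libraries in reads is unknown. Replicate 1 had the fewest genes above 0 FPKM in both genotypes, 19102 in WT and 17623 in *alh-4(-)*, against 21058 to 22670 in the other 4 libraries. Markers of intestine, epidermis, muscle, neurons, germline and sperm were all detected in both genotypes, except that *unc-119* was below the filter. None of their 37 tested genes was called by either rule used below, and the summed FPKM of each list overlapped between the genotypes. These sums were led by abundant markers, such as *act-5* and *glh-1* (WT means 10511 and 10446 FPKM). Genes higher and lower in *alh-4(-)* numbered 5 and 1 for germline, 1 and 5 for epidermis, and 2 and 5 for intestine and sperm. They numbered 4 and 2 for muscle, and 3 and 2 for neurons. Among epidermis markers, *dpy-7* ranged from 2.39 to 41.7 FPKM in WT and from 1.31 to 8.89 FPKM in *alh-4(-)*.

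The *cth-1* level in *alh-4(-)* was 23.2% of that in WT, the lowest such share of the 10 genes, and its paralog *cth-2* was at 92.0%. The *cth-1* level was 1280, 828 and 1031 FPKM in WT, against 235, 260 and 233 FPKM in *alh-4(-)*. Every mutant library lay far below every WT library, and the mutant libraries were close to each other. The means were 1046 ± 227 FPKM in WT and 243 ± 15.1 FPKM in *alh-4(-)* (SD, n = 3 each). On the log2(FPKM + 1) scale the difference, *alh-4(-)* minus WT, was -2.08 (SE 0.21, 95% confidence interval -2.59 to -1.58), a 4.24-fold lower level. Ordered by the size of the difference, *cth-1* was number 163 of the 16225 tested genes. In the fit over all genes, *cth-1* was among the genes called by both rules used here: an adjusted p under 0.05 (limma, Benjamini-Hochberg over all tested genes), and a fold change over 2 with an unadjusted p under 0.05. Since its lower level was known when it was chosen, these calls describe where it stood in the fit and are no test of it. *cth-1* was called by the second rule in all 15 alternative fits. The call by the first was lost when any 1 of the 6 libraries was left out, where the log2 difference ranged from -2.24 to -1.93, and it held in 5 of the 15 fits. In RNA from whole worms, fewer cells that express *cth-1* and less *cth-1* RNA per cell cannot be told apart. Intestine markers summed to 14143 to 22015 FPKM in WT and 12472 to 19937 FPKM in *alh-4(-)*, and epidermis markers to 904 to 1402 and 799 to 1038 FPKM. The median log2 differences of these lists were -0.13 and -0.41, and their part in the difference of *cth-1* was not tested.

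*cth-2*, the other cystathionine gamma-lyase gene, was at 2656, 3577 and 3620 FPKM in WT, against 2211, 3330 and 3527 FPKM in *alh-4(-)*. The genotypes overlapped, and replicate 1 was the lowest library of each. The log2 difference was -0.14 (SE 0.25, interval -0.72 to 0.45). Whether *cth-1* and *cth-2* differed in their response was not tested. In the WBcel235 annotation *cth-1*, on chromosome V, encodes proteins of 361 and 392 residues, and *cth-2*, on chromosome II, one of 392. No other annotated gene overlapped *cth-1*. *cth-2* overlaps *ZK1127.3* on the opposite strand, and the library protocol does not mark strand, so reads of these genes cannot be told apart where they overlap. *ZK1127.3* itself was at 17.5 to 26.6 FPKM in WT and 27.2 to 33.2 FPKM in the mutant, far below *cth-2*.

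Because *cth-2* was the more abundant paralog in every library, the summed cystathionine gamma-lyase level differed less than *cth-1* did. The sum of both genes was 3937, 4405 and 4651 FPKM in WT, against 2446, 3590 and 3760 FPKM in *alh-4(-)*. The ranges did not overlap, and the mutant mean was 0.754 of the WT mean (3265 ± 715 against 4331 ± 363 FPKM). The sum includes *cth-1*, whose lower level was already known, and *cth-2* alone overlapped, so this is no separate result. *cth-1* made up 32.5, 18.8 and 22.2% of this sum in WT and 9.59, 7.25 and 6.20% in *alh-4(-)*. *cth-2* exceeded *cth-1* by a factor of 2.08 to 4.32 in WT and of 9.43 to 15.1 in the mutant.

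**Figure D1:**
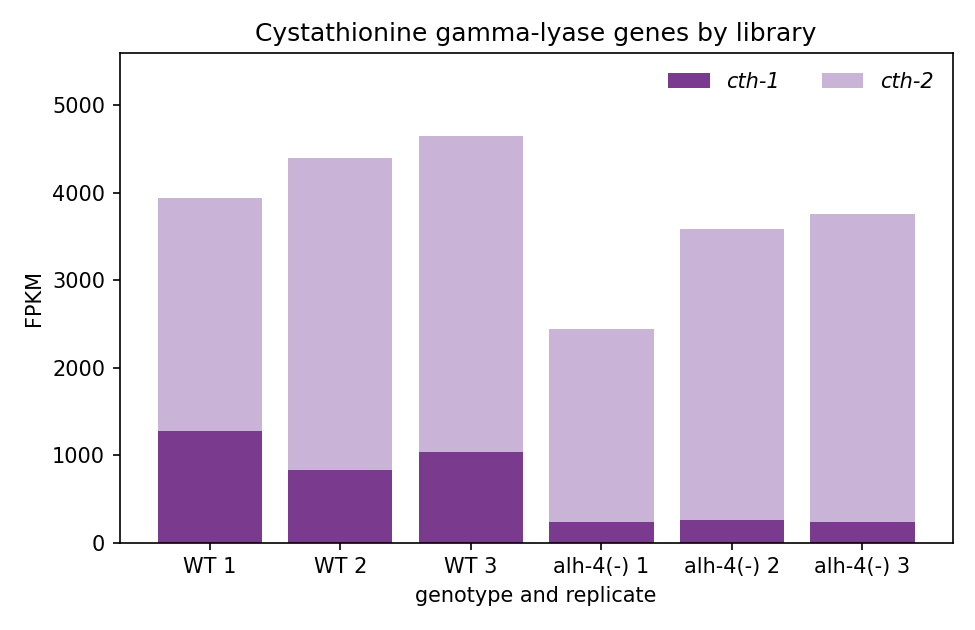
Level of *cth-1* (dark) and *cth-2* (light) in FPKM, stacked, in each of the 6 libraries. The dark segment shrinks from 828 to 1280 FPKM in WT to 233 to 260 FPKM in *alh-4(-)*, while the *cth-2* segment (2211 to 3620 FPKM) overlaps between the genotypes.

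The cystathionine beta-synthase genes act one step before *cth-1*. *cbs-2* was at 196.04, 133 and 166 FPKM in WT, against 147, 118 and 118 FPKM in *alh-4(-)*. Replicate 1 of the mutant lay inside the WT range, and the other mutant libraries lay below it. The log2 difference was -0.36 (SE 0.22, interval -0.89 to 0.17), the most negative of the genes that were not called. *cbs-1* was expressed much lower, at 30.96, 32.8 and 25.5 FPKM in WT, against 29.1, 30.5 and 44.3 FPKM in *alh-4(-)*. Here 1 mutant library, replicate 3, stood above the other 5, which overlapped. The log2 difference of *cbs-1* was 0.19 (SE 0.26, interval -0.42 to 0.81).

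Within WT, *cth-1* and *cbs-2* had the same order of libraries, and their ratio was nearly the same in each, at 6.53, 6.21 and 6.21. In *alh-4(-)* this ratio was 1.60, 2.20 and 1.98. All mutant ratios were lower, with means of 6.31 ± 0.186 in WT and 1.93 ± 0.306 in *alh-4(-)*. The ratio includes *cth-1*, whose lower level was already known, so this separation is no separate result. The ratio of *cbs-2* to *cbs-1*, which does not include *cth-1*, was 4.06 to 6.52 in WT and 2.66 to 5.05 in *alh-4(-)* and overlapped. The likeness of *cth-1* and *cbs-2* within WT rests on 3 libraries and was not tested. The order itself was not particular to this pair. *mel-32* had the same order of WT libraries, at 419.45, 293.8 and 419.19 FPKM, with replicates 1 and 3 almost equal. The rest of the set had other orders. *nhr-114*, of the regulators listed below, also had this order, at 1277, 800 and 985 FPKM. So did *gcst-1* and *spds-1* of the lists below, and the intestine marker *act-5*. Within *alh-4(-)*, replicate 2 was the highest for *cth-1* and replicate 1 for *cbs-2*.

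Of the SAM synthetase genes *sams-1*, *sams-3* and *sams-4*, *sams-1* contributed most of the FPKM in every library. Its level was 375, 402 and 534 FPKM in WT, against 222, 456 and 528 FPKM in *alh-4(-)*. The genotypes overlapped, and replicate 1 of the mutant was lower than any other library. The log2 difference was -0.20 (SE 0.35, interval -1.02 to 0.63), the widest interval of the 10 genes. With single libraries left out it ranged from -0.44 to 0.18, so its sign was not fixed by these data.

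*sams-3* was at 56.5, 52.2 and 66.0 FPKM in WT, against 67.8, 69.3 and 74.8 FPKM in *alh-4(-)*. The mutant libraries were all higher, but the gap between the closest libraries of the genotypes was small. The log2 difference was 0.28 (SE 0.20, interval -0.20 to 0.76), and *sams-3* was not called by either rule. *sams-4* was at 122, 125 and 123 FPKM in WT, against 115, 117 and 141 FPKM in *alh-4(-)*. The WT libraries, which were nearly equal, fell inside the mutant range, and the log2 difference was 0.01 (SE 0.19, interval -0.44 to 0.45).

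*sams-3* and *sams-4* are near-identical paralogs that lie side by side on chromosome IV, on opposite strands and with 0 protein-coding genes between them, so reads may have been split between them and their separate values are uncertain. Their sum was 178, 178 and 189 FPKM in WT, against 183, 186 and 216 FPKM in *alh-4(-)*, and overlapped. *sams-3* also overlaps *C06E7.4* on the opposite strand, which was at 65.1 to 211 FPKM, above *sams-3* in every library. With *sams-1* included, the sum was 619 ± 91.3 FPKM in WT and 597 ± 174 FPKM in *alh-4(-)*.

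The cycle enzymes downstream of SAM were among the most abundant transcripts of the set. *ahcy-1*, for the hydrolase that removes S-adenosylhomocysteine, was at 2417, 2211 and 1890.4 FPKM in WT, against 2009.8, 1469 and 1714 FPKM in *alh-4(-)*. The genotypes overlapped in 1 library of each, replicate 3 of WT and replicate 1 of the mutant. The mutant mean was 79.7% of the WT mean, and the log2 difference was -0.33 (SE 0.20, interval -0.80 to 0.14).

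*metr-1* was at 3255, 3275 and 3484 FPKM in WT, against 2528, 3705 and 4942 FPKM in *alh-4(-)*. WT was tight, and the mutant libraries spread from well below to well above it, with SDs of 127 and 1207 FPKM. The log2 difference was 0.11 (SE 0.26, interval -0.51 to 0.72). *mel-32*, which loads the folate cycle with one-carbon units from serine, was at 419, 294 and 419 FPKM in WT, against 391, 319 and 395 FPKM in *alh-4(-)*. All mutant libraries lay inside the WT range, replicate 2 was the lowest of each genotype, and the log2 difference was -0.02 (SE 0.22, interval -0.54 to 0.49).

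**Figure D2:**
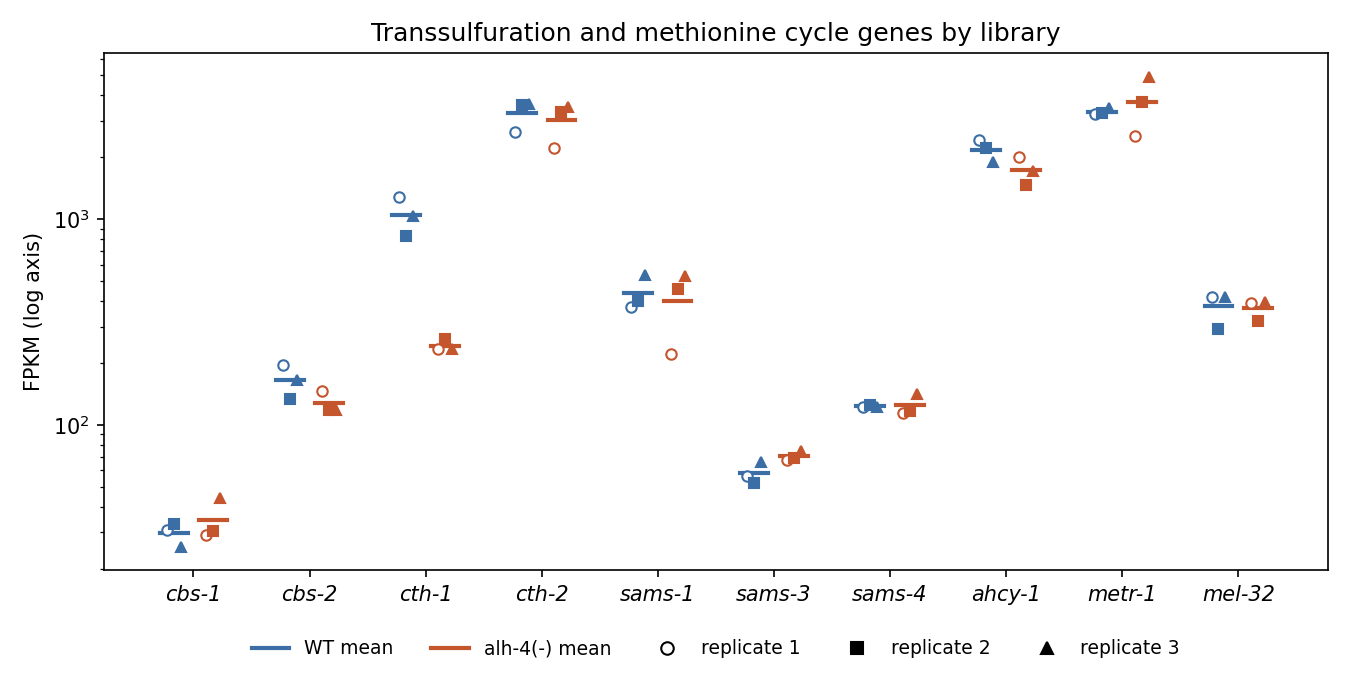
FPKM of the 10 genes (log axis) in each library, WT in blue and *alh-4(-)* in orange, with symbols for replicates and a bar at the mean of 3. The *cth-1* points separate by genotype (828 to 1280 against 233 to 260 FPKM), those of *sams-3* separate narrowly (52.2 to 66.0 against 67.8 to 74.8 FPKM), and those of the other 8 genes overlap.

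FPKM is scaled by exon length, so mean levels were ordered between genes. The limits given above for *cth-2*, *sams-3* and *sams-4* apply to this order. In WT the order of mean FPKM was *metr-1*, *cth-2*, *ahcy-1*, *cth-1*, *sams-1*, *mel-32*, *cbs-2*, *sams-4*, *sams-3* and *cbs-1*. Neighbours whose libraries overlapped were *metr-1* with *cth-2*, and *sams-1* with *mel-32*. In *alh-4(-)* the order was the same except that *cth-1* moved from place 4 to place 6, below *sams-1* and *mel-32*. In the mutant, the neighbours *cbs-2* and *sams-4* overlapped as well as the 2 pairs named for WT. *cth-1* and *sams-1*, not neighbours in this order, also overlapped. In mutant replicate 1, *cth-1* (235 FPKM) was above *sams-1* (222 FPKM). The sum of all 10 genes was 10808, 10931 and 11359 FPKM in WT, against 7956, 9874 and 11717 FPKM in *alh-4(-)*, which overlapped.

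Of the mutant libraries, replicate 1 was the lowest for 6 of the 10 genes, and replicate 3 the highest for 7. The spread of the mutant libraries was widest for *sams-1*, with a ratio of 2.38 between the highest and the lowest mutant library, followed by *metr-1* with 1.95. It was smallest for *sams-3* and *cth-1*, and the coefficient of variation of *cth-1* was 21.7% in WT and 6.24% in *alh-4(-)*.

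By either call rule, 1 of the 10 genes was called, *cth-1*, in the lower direction. Of all tested genes, 0.0308% were called lower and 0.111% higher by adjusted p, and 1.37% lower and 1.54% higher by fold and p. Since *cth-1* was known to be lower when the set was named, nothing is read from its count. The groups did not overlap for 2 of the 10 genes, *cth-1* and *sams-3*, against 9.21% of all tested genes. This count also includes *cth-1*, already known to be lower, so nothing is read from it either. The median log2 difference of the set was -0.08, with 4 genes higher and 6 lower, beside 0.07 over all tested genes. The 9 genes that were not called had log2 differences from -0.36 to 0.28 with SEs from 0.19 to 0.35. For 8 of these 9 the 95% interval lay within a 2-fold change in both directions, and for *sams-1* it reached -1.02. A difference smaller than these intervals was not detectable with 3 libraries a genotype.

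**Figure D3:**
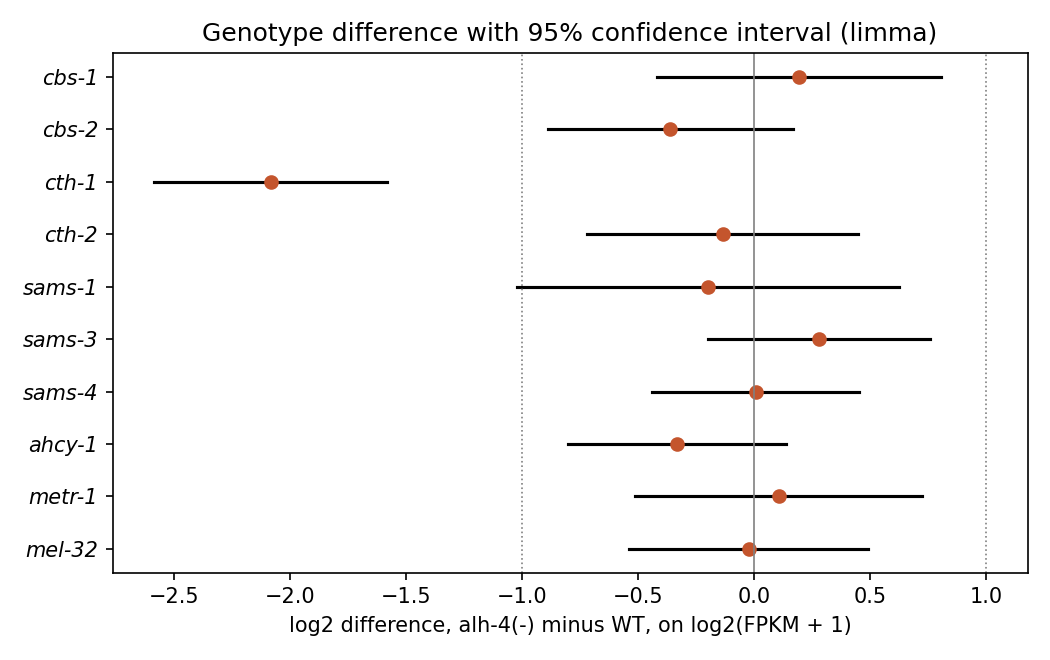
Log2 difference, *alh-4(-)* minus WT, on the log2(FPKM + 1) scale for each of the 10 genes (point) with its 95% confidence interval from limma (line). Dotted lines mark a 2-fold change. The interval of *cth-1* (-2.59 to -1.58) lies wholly beyond 2-fold, and those of the other 9 genes include 0.

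Around these genes, lists of 66 other genes of the pathway were examined, of which 62 passed the filter. The lists were drawn up with earlier results of these data known, so p-values of their genes are not independent evidence. With limma, 0 of the 62 had an adjusted p under 0.05. Without adjustment, p was under 0.05 for 3 of the 62, a share near the 4.97% of all tested genes. Of these 3 genes, 1, *cysl-2*, passed the fold and p rule, lower in *alh-4(-)*, as did 1.37% of all tested genes. Of the 62, 36 were higher and 26 lower, with a median log2 difference of 0.05. Among the other genes of the methionine and folate cycles, 10 were higher and 4 lower, from -0.23 for *gcst-1* (glycine cleavage) to 0.25 for *atic-1* (purine synthesis). The 1 other SAM synthetase gene tested, *sams-5*, had a log2 difference of 0.29.

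The 16 genes downstream of cysteine, for sulfide and glutathione, held the 1 gene that passed. *cysl-2*, a cysteine synthase-like gene for a cyanoalanine synthase, was at 124, 61.8 and 46.0 FPKM in WT, against 33.9, 20.9 and 21.6 FPKM in *alh-4(-)*. The genotypes did not overlap, and the WT libraries were far apart. The log2 difference was -1.47 (SE 0.40), with an unadjusted p of 0.00794 and an adjusted p of 0.561 by limma (0.102 to 1 over the alternatives, with log2 differences from -1.78 to -1.07). In this list 6 genes were higher and 10 lower, and the highest was *sqrd-1*, for the mitochondrial sulfide oxidase, at 0.10. *hif-1*, for the hypoxia factor that induces *cysl-2* in worms, had a log2 difference of -0.11. This is an RNA level, and the activity of the HIF-1 protein was not measured.

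In the list of SAM-dependent methylation and polyamine synthesis, 6 genes were higher and 5 lower. The outermost values belonged to polyamine genes. *odc-1*, for ornithine decarboxylase, was at 52.6, 62.9 and 81.7 FPKM in WT, against 148, 106 and 84.8 FPKM in *alh-4(-)*. The genotypes did not overlap, by a narrow margin, and the log2 difference was 0.76 (SE 0.28, adjusted p 0.910 by limma). *spds-1*, for spermidine synthase, was at -0.43. Of the 12 regulators, 7 were higher and 5 lower, and *pqm-1*, for a zinc finger transcription factor, was outermost. Its level was 53.3, 54.1 and 59.6 FPKM in WT, against 92.2, 122 and 118 FPKM in *alh-4(-)*. These ranges were well apart, and the log2 difference was 0.97 (SE 0.21, adjusted p 0.339 by limma, 0.0436 to 1 over the alternatives). Among genes of serine supply and vitamin B12 handling, 6 were higher and 2 lower, from -0.12 for *mmab-1* to 0.39 for *mmaa-1*.

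**Figure D4:**
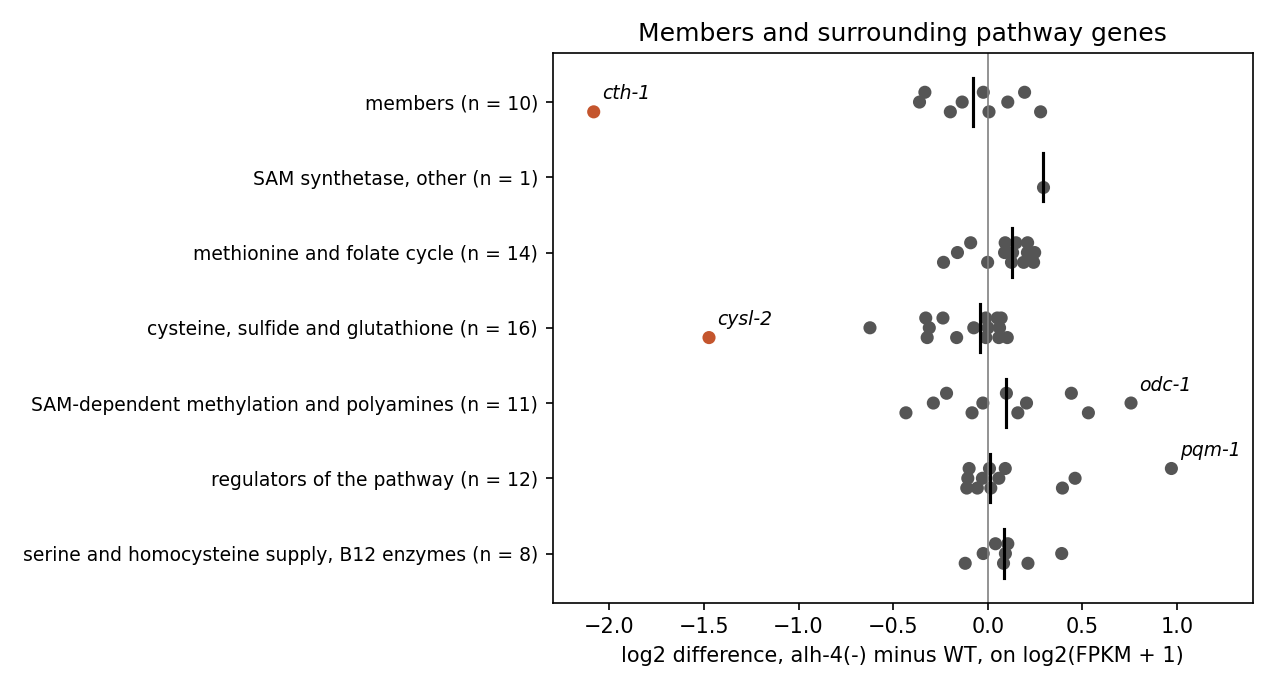
Log2 difference, *alh-4(-)* minus WT, on the log2(FPKM + 1) scale, of the 10 genes (top row) and of the tested genes of each surrounding list, 1 point a gene, with a bar at the list's median. Orange points passed the fold and p rule, namely *cth-1* (-2.08) and *cysl-2* (-1.47).

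Across the 6 libraries, the genes whose log2(FPKM + 1) followed *cth-1* most closely were *vit-1* (Pearson r 0.997), *F13D12.9* (0.996), *pud-2.1* (0.995), *F09B12.7* (0.992) and *clec-218* (0.990). These values share the libraries and the genotype contrast, so they describe how alike the profiles were. *F13D12.9* was at 4893, 4169 and 4680 FPKM in WT, against 2970, 2949 and 2971 FPKM in *alh-4(-)*, a smaller step than that of *cth-1* but with the same order of WT libraries. *vit-1*, a yolk protein gene, had a log2 difference of -2.01, close to that of *cth-1*, and *pud-2.1* one of -3.82. *F09B12.7* was listed at 0 in all 3 mutant libraries, and *clec-218* differed by -1.58.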

How the data were processed

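RNA-seq libraries of whole L4 worms, 3 of WT and 3 of *alh-4(-)*, which the submitters describe as biological replicates, were made with a Smart-seq2 protocol. The authors aligned the reads to the ce10 build, used the matching Illumina iGenome annotation, and deposited FPKM values per gene and library, without pooling. The submitters' processing notes name bcl2fastq 2.19, Trimmomatic 0.36, HISAT2 2.1.0, SAMtools 1.3 and StringTie 1.3.3, with no roles. These notes name the build mm10 beside ce10, and ce10 was taken from the authors' methods. Low quantiles of FPKM times transcript length, in genes with 1 transcript, were computed to look for steps worth 1 read. No depth was derived from them, and depth is unknown.

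Genes with a mean of at least 1 FPKM were tested as log2(FPKM + 1) with limma 3.58.1 in R 4.3.3 (lmFit, eBayes with trend, two-sided, Benjamini-Hochberg adjustment), which was tested on simulated data. This scale understates differences of low genes. The text names the 10 genes, *alh-4*, of each pathway list the called and outermost genes, and the 5 genes most like *cth-1*. These genes and lists were chosen with earlier results of these data known. Alternatives were another pseudocount (0.1), no filter or a mean of at least 10 FPKM, quantile and upper quartile scaling, no trend, array weights, a replicate block, and leaving out libraries. The WBcel235 annotation gave chromosomes, overlaps and residues. Tables and plots came from Matplotlib 3.10.9, pandas 2.3.3 and NumPy 2.4.6 in Python 3.11.15.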

Additional observations from a re-analysis of the deposited data

How the results depend on the processing

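The log2 difference of *cth-1* stayed between -2.24 and -1.90, and each other value of the 10 genes moved by less than 1 residual SD. Signs changed under some alternatives for *cth-2*, *sams-1*, *sams-4*, *metr-1* and *mel-32*, and under none tried for *cbs-1*, *cbs-2*, *sams-3* and *ahcy-1*. By adjusted p, 1 of the 10 genes was called, and 0 with no filter, no trend, the replicate block, both replicate 1 libraries left out, or any single library left out (0 to 0). Over all genes, 23 were called by adjusted p, 11 with no filter, 36 with quantile and 35 with upper quartile scaling, 91 with array weights, and 6 to 25 with single libraries left out. By fold and p, 473 genes were called (250 higher, 223 lower), 266 with a mean of at least 10 FPKM, 894 with array weights (626 higher, 268 lower), 774 without both replicate 1 libraries, and 363 to 950 with single libraries left out (leaving out *alh-4(-)* replicate 1 gave 747 higher and 203 lower, its replicate 2 gave 178 and 316, and its replicate 3 gave 195 and 301). Upper quartile scaling gave 213 higher and 277 lower. Array weights moved the median of all genes from 0.07 to 0.20. Of the pathway genes, 1 was called by fold and p, 2 with array weights, 2 without both replicate 1 libraries, and 1 to 2 with single libraries left out, the addition being *pqm-1*.

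Same-numbered libraries had correlations of their deviations of 0.31, 0.28 and 0.00, against -0.31 to 0.17 for libraries of unlike number. Of 6 libraries, 4 correlated best with their own number. Whether the numbers pair the samples was not settled, and no block was used in the main fit because the labels name no pairing. The replicate block gave 15 genes by adjusted p, without *cth-1*, and 563 by fold and p. With 3 libraries a genotype and unknown depth, small differences could not be resolved. The p-values set each difference against the spread between these libraries, as moderated by limma over all tested genes.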
